A study of Mus musculus with 2 samples.

Results

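The miR-130 and miR-301 family was examined in the neural tube of B6NCrl mouse embryos at embryonic day 11.5. The members were the genes Mir130a, Mir130b, Mir301 (the gene of miR-301a) and Mir301b, 4 of 1973 miRNA genes with a row in the count tables. They were picked by gene identifier, matched to GENCODE mouse symbols, and their reads on the gene's own strand were used. No level served as a threshold, but the family was proposed with results of these data known, so its levels are given as a description. Small RNA below 30 nt was sequenced from 1 group of 2 libraries, each a pool of healthy embryos of both sexes. Replicate 1 came from 109 embryos and replicate 2 from 88. The animals carried no stated allele or treatment, and no other tissue or stage was compared. Abundance is given as own-strand counts per 1000000 own-strand counts on miRNA genes (CPM), with mean ± SD over n = 2.

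MicroRNAs guide Argonaute proteins to messenger RNAs and lower their output. Targets are chosen mainly through the seed, the bases near the 5′ end of the mature strand, so miRNAs that share a seed are expected to share many targets. The miR-130 and miR-301 family is defined by such a seed on its 3p arms. In human cells, miR-130a is known as a promoter of blood vessel growth that lowers the homeobox genes GAX and HOXA5, and the family lowers PPARG, a master regulator of fat cells.

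The mature 3p arms show what unites the family, with the seed (bases 2 to 8, counted from the 5′ end) in capitals. Sequences are those of RefSeq for GRCm38.p6, the assembly also called mm10, in which all 4 hairpins were matched by symbol. No mature miR-301b-3p is among the RefSeq sequences used here, so the hairpin of Mir301b is printed whole, with the same letters in capitals.
miR-130a-3p: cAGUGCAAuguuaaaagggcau
miR-130b-3p: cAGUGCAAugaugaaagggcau
miR-301a-3p: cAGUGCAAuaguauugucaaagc
Mir301b hairpin: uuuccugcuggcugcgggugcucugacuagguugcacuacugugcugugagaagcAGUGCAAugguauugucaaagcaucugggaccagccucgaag

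The seed AGUGCAA occurred once in each of the 4 hairpins, on the side of the 3′ end. Among 1738 mature miRNAs of the RefSeq table, 7 had these letters at bases 2 to 8, or 0.403%. They were miR-130a-3p, miR-130b-3p, miR-301a-3p and the arms of 4 genes that are not members. miR-301b-3p has no entry in that table and is not counted. The arms of miR-130a-3p and miR-130b-3p were identical at 20 of 22 positions and differed by U11A and A13G, with positions counted from the 5′ end of miR-130a-3p. miR-301a-3p shared its first 9 bases with both and then diverged, with 12 of 22 positions identical to miR-130a-3p and 11 of 22 to miR-130b-3p.

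The 5p arms varied more at bases 2 to 8, again in capitals.
miR-130a-5p: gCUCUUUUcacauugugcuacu
miR-130b-5p: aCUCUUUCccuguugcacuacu
miR-301a-5p: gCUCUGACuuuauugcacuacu
miR-301b-5p: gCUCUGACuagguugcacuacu
miR-301a-5p and miR-301b-5p carried the same letters at bases 2 to 8 and were identical at 19 of 22 positions. miR-130a-5p and miR-130b-5p differed there by U8C and were identical at 15 of 22 positions. Over the whole arm, miR-130b-5p was identical to miR-301a-5p and to miR-301b-5p at 16 of 22 positions each, 1 more than to miR-130a-5p. The count tables are per hairpin gene, so counts of the 5p and 3p arms could not be told apart.

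**Figure D1:**
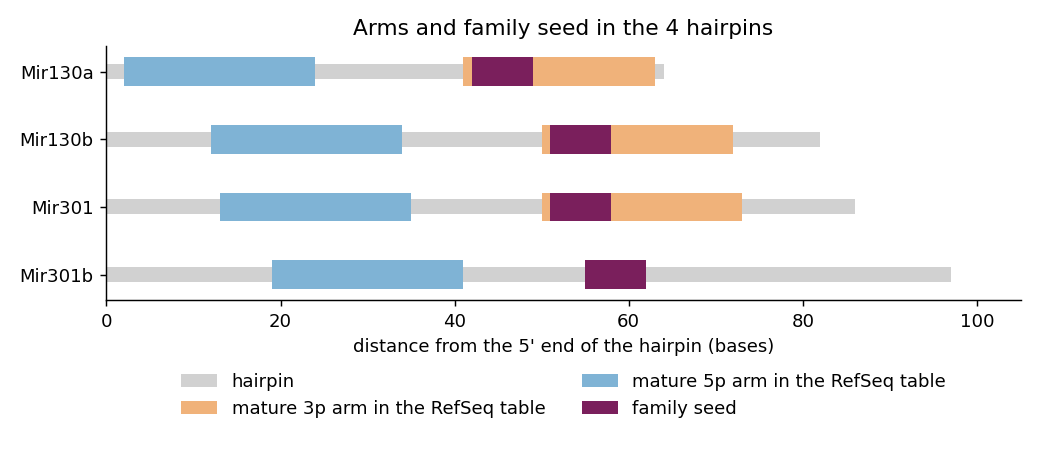
Position of the mature arms and of the family seed along each hairpin, in bases from the 5′ end of the hairpin. The seed begins at base 43 in Mir130a, base 52 in Mir130b and Mir301, and base 56 in Mir301b.

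The genes lie at 3 places in the genome. By GENCODE M21 (GRCm38), Mir130a (ENSMUSG00000065484.1) is on the minus strand of chromosome 2, from 84741115 to 84741178, with no annotated gene across it. The nearest gene, the protein-coding Gm19426, lies 990 bases away on the same strand. Mir301 (ENSMUSG00000065589.1) is on the plus strand of chromosome 11, from 87113004 to 87113089, in an intron of Ska2, whose protein is part of the complex that ties kinetochores to the mitotic spindle. Mir130b (ENSMUSG00000065572.1) and Mir301b (ENSMUSG00000076288.1) are neighbours on the minus strand of chromosome 16, from 17124061 to 17124142 and from 17124400 to 17124496. A gap of 257 bases parts them, and both lie in an intron of the protein-coding gene 2610318N02Rik on the same strand.

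Reads that mapped to more than 1 place entered no gene's count, so a member whose reads match elsewhere would be undercounted. The longest run of bases that a member's hairpin shared with any of 2201 other annotated miRNA hairpins was 17 nt for Mir130a, with Mir6389. It was 16 nt for Mir130b, with Mir6368, and 16 nt for Mir301 and Mir301b, with each other. None shared a run of 20 nt. These runs allow no mismatch. The seed-bearing stretch of the Mir301b hairpin differs from miR-301a-3p by 1 base. Reads of the more abundant Mir301 could thus map to Mir301b if mismatches were allowed, and the number allowed is not stated. Each of the 7 mature arms in the RefSeq table for these genes matched the annotated transcripts of 1 gene exactly, its own. The table has no mature entry for miR-301b-3p, so that arm was not searched. The search covered annotated transcripts and not the rest of the genome.

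Mir130a was by far the leading member and ranked 7th of all miRNA genes by mean level. It had 100548 own-strand counts in replicate 1 and 109996 in replicate 2, which is 27112 CPM (95% Wilson interval 26947 to 27277) and 27120 CPM (26962 to 27279). Its mean was 27116 ± 5.97 CPM, and the libraries differed by less than counting error when scaled by total counts.

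Mir130b came next, at rank 26. It had 26420 counts, or 7124 CPM (7039 to 7210), in replicate 1 and 35003 counts, or 8630 CPM (8541 to 8721), in replicate 2, with a mean of 7877 ± 1065 CPM. Its counting intervals did not overlap between the libraries, and replicate 2 was the higher.

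Mir301 ranked 80th, with 6278 counts, or 1693 CPM (1651 to 1735), in replicate 1 and 4986 counts, or 1229 CPM (1196 to 1264), in replicate 2. Here replicate 1 was the higher, again with no overlap of the counting intervals. The mean was 1461 ± 328 CPM. In human pancreatic cancer cells miR-301a is known to lower NKRF, a repressor of NF-kB signalling.

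Mir301b was the scarce member, at rank 180. It had 583 counts, or 157 CPM (145 to 170), in replicate 1 and 522 counts, or 129 CPM (118 to 140), in replicate 2. The mean was 143 ± 20.2 CPM and replicate 1 was the higher. Reads on the strand opposite the members came to 2, both at Mir130a in replicate 2. Copies made by PCR are not independent and no molecular identifiers are stated, so the intervals express counting error alone.

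**Figure D2:**
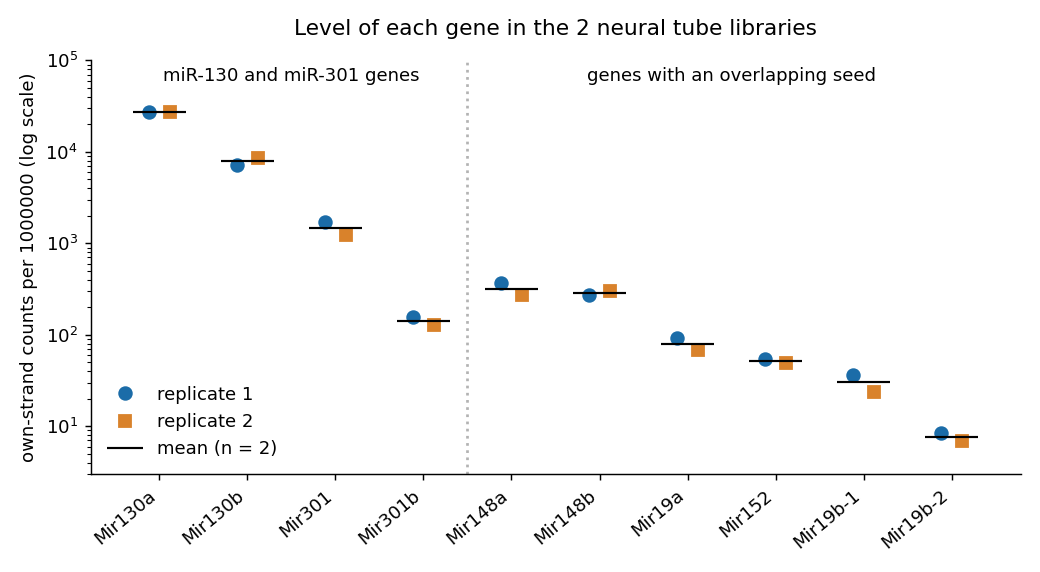
Level of the 4 members and of 6 genes with an overlapping seed, in own-strand counts per 1000000 on a log axis, with a circle for replicate 1, a square for replicate 2 and a line at the mean of both. Mir130a stands highest at 27112 and 27120 CPM, and all 6 other genes lie below Mir301.

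The order Mir130a, Mir130b, Mir301, Mir301b held in both libraries, and no neighbours in it overlapped. As ratios of counts, Mir130a exceeded Mir130b by 3.81-fold in replicate 1 (exact 95% interval 3.75 to 3.86) and by 3.14-fold in replicate 2 (3.10 to 3.18). Mir130b exceeded Mir301 by 4.21-fold (4.09 to 4.33) and by 7.02-fold (6.81 to 7.23). Mir301 exceeded Mir301b by 10.8-fold (9.89 to 11.7) and by 9.55-fold (8.73 to 10.5). Counts were not divided by length, since a read covers 1 arm rather than the hairpin. Divided by the hairpin lengths of 64 bases for Mir130a, 82 for Mir130b, 86 for Mir301 and 97 for Mir301b, the mean ratios of these 3 steps were 4.45, 5.89 and 11.5, in the same order. How evenly the library preparation captured each sequence was not measured.

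Mir130b and Mir301b, which lie 257 bases apart on the same strand, differed widely in counts. Mir130b exceeded its neighbour by 45.3-fold in replicate 1 (exact 95% interval 41.7 to 49.3) and by 67.1-fold in replicate 2 (61.5 to 73.2). These intervals do not overlap, so the ratio itself differed between the libraries by more than counting error, by 1.48-fold. The intervals leave out any wider spread between libraries, so whether the ratio differed beyond that spread was not tested. Mir301, on another chromosome, was closer to Mir301b in count than Mir130b was, in both libraries.

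Together the 4 genes took 3.61% of own-strand counts in replicate 1 (95% Wilson interval 3.59 to 3.63) and 3.71% in replicate 2 (3.69 to 3.73), a mean of 3.66% ± 0.0723. Mir130a made up 75.1% and 73.1% of the family's counts, and Mir130b 19.7% and 23.3%. Mir301 made up 4.69% and 3.31%, and Mir301b 0.436% and 0.347%. The family's hairpin counts thus came chiefly from the pair of miR-130 genes in both libraries.

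**Figure D3:**
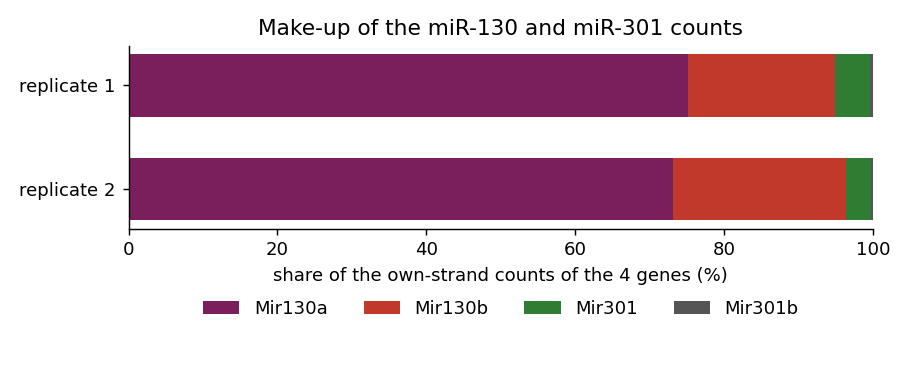
Share of the family's own-strand counts held by each member, in percent, with 1 bar per library. Mir130a fills 75.1% of the bar for replicate 1 and 73.1% for replicate 2, and Mir130b fills 19.7% and 23.3%.

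By mean CPM, the genes standing directly above and below each member were taken as those most like it in level, over 2 libraries. For Mir130a they were Mir100, at 1.10 times its mean, and the endothelial gene Mir126a, at 0.871 times. The range of Mir100 over the libraries took in that of Mir130a, and the range of Mir126a did not. For Mir130b they were Mir487b at 1.02 times and Mir296 at 0.903 times. For Mir301 they were Mir483 at 1.01 times and Mir196a-2 at 0.943 times, and for Mir301b Mir7b at 1.02 times and Mir101a at 1.00 times. The ranges of these 6 genes all overlapped that of their member.

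Other genes annotated with the same seed had counts at or near 0. Mir130c had 1 own-strand count in replicate 1 and 0 in replicate 2, and Mir6341 and Mir6389 had 0 in both. A count of 0 allows up to 3 counts, or 0.809 CPM in replicate 1 and 0.740 CPM in replicate 2. Mir721 had no row used here, so its part in the family's counts is not given. Mir454, named beforehand, also had no row, and no arm of it with this seed was among the RefSeq sequences.

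Further groups carry a seed that overlaps the family's by 6 of its bases, shifted by 1 position. The shift is visible in 1 arm of each group, with bases 2 to 8 in capitals.
miR-148a-3p: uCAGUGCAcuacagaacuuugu
miR-19a-3p: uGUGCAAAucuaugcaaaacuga
The group of miR-148 and miR-152 is known to lower the DNA methyltransferase DNMT1. The 6 genes Mir148a, Mir148b, Mir152, Mir19a, Mir19b-1 and Mir19b-2 together took 0.0825% of counts in replicate 1 and 0.0725% in replicate 2. The 4 members exceeded this sum by 43.7-fold and 51.2-fold. Mir148a led with 364 CPM in replicate 1 and 272 CPM in replicate 2, followed by Mir148b with 270 and 305 CPM. Both stood above the member Mir301b, which had 157 and 129 CPM. Mir19a had 91.9 and 68.3 CPM, and Mir152 had 53.9 and 49.3 CPM. Mir19b-1 and Mir19b-2 carry an identical mature 3p arm, so reads of that arm map to several places and could be counted for neither. The sum over these 6 genes may therefore be too low, and the folds over it too high.

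The 2 pools were next compared gene by gene, to see how far the members moved between libraries of the same tissue. Each gene's counts were set against the library totals in an exact binomial test (two-sided), and p-values were adjusted by Benjamini-Hochberg across the 444 genes whose counts summed to 10 or more. The test compares these libraries and not conditions, and it takes reads as independent. Of the 4 members, 3 differed, where 53.2% of all tested genes did, so the count is unremarkable for these libraries. Mir301 and Mir301b were higher in replicate 1, as were 45.3% of all tested genes, and Mir130b was higher in replicate 2, as were 7.88%.

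On the log2 scale, Mir130b was higher in replicate 2 by 0.28, which is 1.21-fold (exact binomial adjusted p = 3.12e-122). Mir301 was higher in replicate 1 by 0.46, or 1.38-fold (exact binomial adjusted p = 2.60e-63). Mir301b was higher in replicate 1 by 0.29, or 1.22-fold (exact binomial adjusted p = 0.00218). For Mir130a the log2 ratio of replicate 1 over replicate 2 was -0.00045, with an exact 95% interval of -0.013 to 0.012 and an adjusted p of 0.996. The members' median log2 ratio was 0.14, and that of all 444 genes was 0.27.

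These log2 ratios depend on how the libraries are scaled, because the median tested gene was itself higher in replicate 1 by 0.27. Relative to that median, Mir130a lay toward replicate 2 by -0.27 and Mir130b by -0.54, while Mir301 lay toward replicate 1 by 0.19 and Mir301b by 0.020. Of the 444 genes, 44 had a log2 ratio below that of Mir130b and 113 below that of Mir130a. The near equality of Mir130a therefore holds for counts scaled by the total. Scaled by TMM, the trimmed mean of M values, its log2 ratio was -0.29 and passed, while Mir301b came to 0.00068 and no longer passed. The members that passed were again 3 of 4, where 39.9% of all tested genes did. The order of the members from replicate 2 to replicate 1, Mir130b, Mir130a, Mir301b and Mir301, is the same under each scaling, since scaling moves all genes alike. When the test allowed for a spread between the libraries beyond counting error, set by edgeR's common dispersion at a coefficient of variation of 22.7%, 0 of the 4 members passed and 0 had an unadjusted p under 0.05. By that edgeR exact test 5 of 444 genes, or 1.13%, passed and 19 had an unadjusted p under 0.05.

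**Figure D4:**
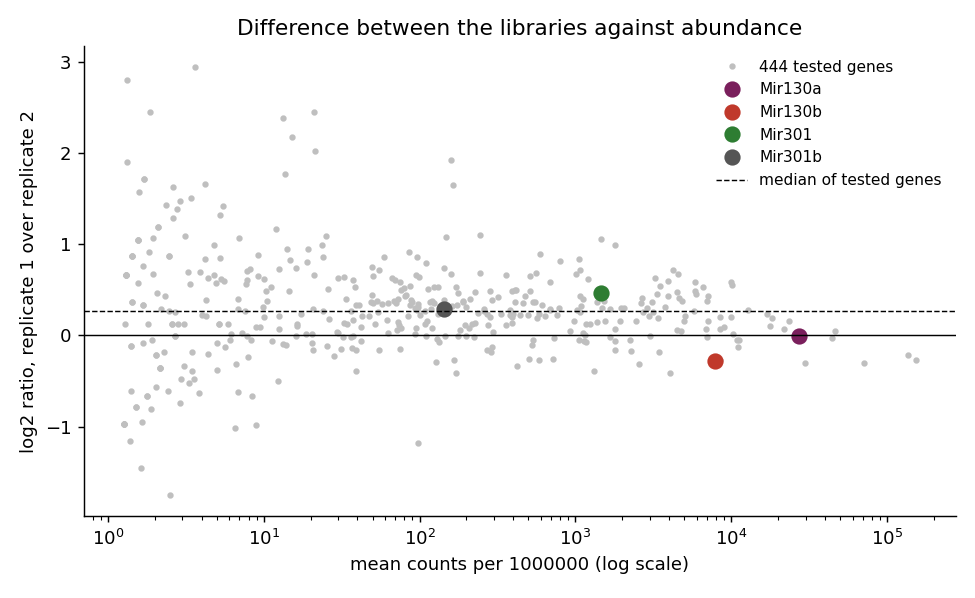
Log2 ratio of replicate 1 over replicate 2, scaled by total counts, against mean counts per 1000000 on a log axis, with a grey point for each of 444 tested genes. The dashed line is the median gene at 0.27. Mir301b lies near it, Mir301 above it, and Mir130a and Mir130b below it.

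**Figure D5:**
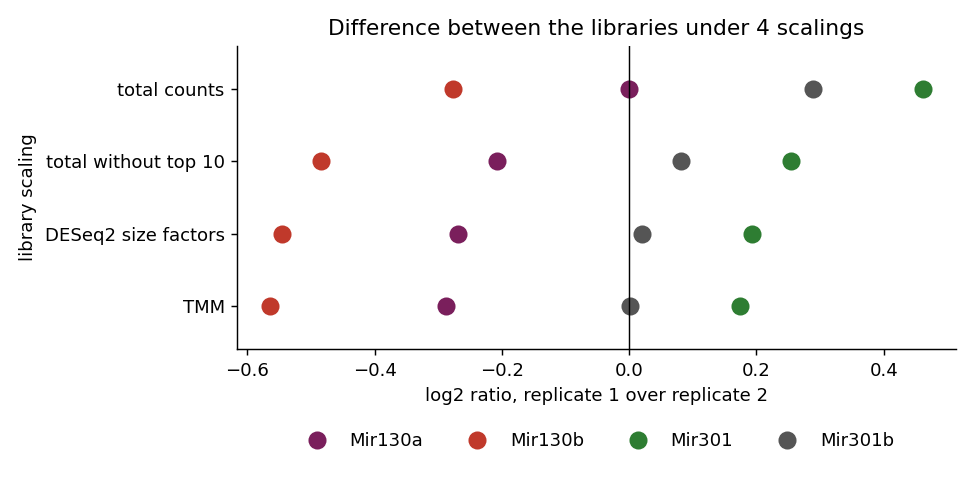
Log2 ratio of replicate 1 over replicate 2 for each member under 4 library scalings. Mir130b lies left of 0 and Mir301 right of 0 under all 4, Mir130a moves from -0.00045 to between -0.29 and -0.21, and Mir301b falls from 0.29 to between 0.00068 and 0.081.

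Replicate 1 held 3708662 own-strand counts on miRNA genes of 8530505 reads, and replicate 2 held 4055883 of 7655421. Reads mapped to several places made up 25.2% and 27.3% of all reads, or 16.1 and 13.9 times the family's own counts. Of the 14 genes listed as neural markers, 12 were measured, none at 0 in both libraries, with 1.73% and 1.39% of counts. Mir219a-2, known from oligodendrocytes, and Mir92b carried most of that share, with 30215 and 19469 of the list's 64088 counts in replicate 1 and 24553 and 19096 of 56560 in replicate 2. The Mir124a copies, which mark neurons, had no more than 44 counts each, and reads common to the copies would map to several places. Marker lists of other cell types also differed in share between the pools. All these shares are scaled by total counts. Under that scaling the median tested gene was itself higher in replicate 1 by a log2 ratio of 0.27, and 45.3% of tested genes passed as higher there. The endothelial gene Mir126a, 1 measured of 2 listed, stood at 2.49% in replicate 1 and 2.23% in replicate 2. The mesenchyme list (7 of 8 measured, none at 0) stood at 2.44% and 1.80%, and the blood list (7 of 8, with Mir142b at 0) at 0.103% and 0.0745%. The muscle list (8 of 9, with Mir133a-1 and Mir133a-2 at 0) stood at 0.148% and 0.0949%. As with the Mir124a copies, reads common to the listed copies of Mir133a, Mir1a, Mir9 or Mir199a would enter no gene's count. A value at or near 0 for such a copy therefore need not mean absence. Mir206 held 5038 of the 5495 muscle counts in replicate 1 and 3085 of 3850 in replicate 2. Mir208a and Mir208b of heart muscle went the other way. They had 4.31 and 60.1 CPM in replicate 1 and 8.88 and 136 CPM in replicate 2. Mir499 and Mir133b of the muscle list were higher in replicate 1, at 18.9 and 39.6 CPM against 10.6 and 32.8 CPM. The epithelial and sensory list (10 of 10, none at 0) stood at 2.60% and 2.81%. In it Mir182, Mir183, Mir96 and Mir203 had the higher CPM in replicate 2, and the other 6 genes, Mir205 and the Mir200 family, had the higher CPM in replicate 1. The shares and the members' counts both differed between the pools, and whether the differences are linked was not tested. In pooled tissue, fewer cells of a type and less RNA per cell cannot be told apart.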

How the data were processed

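Per the files deposited with each library, the authors made raw read counts per miRNA gene for mm10 and annotation M4. For the aligner and trimming of adapters, the tools were not given in the sources used here. Each library had 3 count columns without names, read from their values as either strand, own strand and opposite strand, since the first equals the sum of the others in every gene. Columns not tied to a sample numbered 0. Rows that named no gene, 56.5% of reads in replicate 1 and 47.0% in replicate 2, stayed out of totals and tests.

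Of 1973 identifiers, 1894 matched GENCODE M21. CPM used own-strand totals. Log2 ratios carry a pseudocount of 0.5 counts, the threshold was an adjusted p of 0.05, and shares have 95% Wilson intervals. The exact binomial test was used because 1 library per pool leaves edgeR's quasi-likelihood fit no residual degrees of freedom. It was tried on counts simulated with counting error alone. That trial cannot show how the test behaves under the wider spread between these libraries. Named genes were the members, their neighbours in mean CPM, genes with the same or an overlapping seed, host genes and the cell type markers. Other names, such as the nearest gene, were added after values were seen. Members and lists were chosen with earlier results of these data known. Labels name separate pools, so the libraries were treated as 2 replicates, and p-values measure only the distance between them. edgeR 4.0.16 gave TMM factors and the dispersion, DESeq2 1.42.0 size factors (both under R 4.3.3), and the rest came from Python 3.11.15, numpy 2.4.6, pandas 2.3.3, scipy 1.17.1 and matplotlib 3.10.9.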

Additional observations from a re-analysis of the deposited data

How the results depend on the processing

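The order of the 4 members held in each library alone, with reads of either strand, and per base of hairpin, an alternative chosen after seeing the data, which gave Mir130a 4.45 times Mir130b, 25.6 times Mir301 and 290.4 times Mir301b, and Mir301 11.5 times Mir301b. Levels rest on the denominator. With reads of either strand, Mir130a stood at 26610 CPM. Without the 10 most abundant genes in the total, the levels were 63581 CPM for Mir130a, 18596 for Mir130b, 3387 for Mir301 and 333 for Mir301b. The family's counts came to 8.59% of that total and those of the genes with overlapping seeds to 0.181%. Mir130a, 7th by mean level, is itself among the genes left out of that total. Its level and the family's 8.59% therefore set its counts against a total that lacks them and are not shares. Per 1000000 of all reads the levels of the members, in the same order, were 13078, 3835, 694 and 68.3. The shares were then 1.77% for the family and 0.0371% for the genes with overlapping seeds.

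Between the libraries, Mir130a passed the test with TMM (log2 ratio -0.29), DESeq2's size factors (-0.27), the total without the 10 most abundant genes (-0.21) and the median gene subtracted (-0.27), the last chosen after seeing the data. Under these same 4 settings, in this order, Mir301b did not pass, at 0.00068, 0.020, 0.081 and 0.020. With edgeR's exact test and common dispersion, Mir130b (-0.28), Mir301 (0.46) and Mir301b (0.29) did not pass, which leaves 0 members and 5 of all tested genes. That dispersion was estimated with both libraries taken as 1 group, so it includes the differences it tests. No paired analysis was possible because there is only 1 group. Depth limits Mir301b most, whose 522 to 583 counts gave the widest interval relative to its level.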
